A study of Mus musculus with 5 samples.

Results

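The 34 genes described here encode the kinases, adaptors, lipid enzymes, phosphatases and calcium entry proteins that act below the IgE receptor and KIT in mast cells. They were taken by symbol from the single table of 25549 gene models in the study, and all 34 were present, each in 1 row. The list leaves out the receptors themselves and the Src family kinases.

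RNA was sequenced from mast cells raised from the bone marrow of mice for 6 to 8 weeks with 50 ng/mL recombinant interleukin-3. Heparinase, 40 U for 2 h, is listed for every sample of both groups. Both groups were of the C57BL/6 strain and carried Cpa3-Cre, with Cre recombinase placed under the promoter of Cpa3, a mast cell carboxypeptidase gene. Paired 50-base reads were taken from total RNA without ribosomal RNA, at a stated depth near 70000000 per sample. The control group carried Cpa3-Cre alone (n = 2 samples), and the other group carried Cpa3-Cre;miR-9∆fl/∆fl (n = 3 samples, the miR-9 line). The mice were stated to be matched for age and sex, and the labels give no ages. The X-inactivation transcript Xist stood 1.58 higher in the miR-9 line on the log2 scale of the authors' deposited table. Its unadjusted p was 0.000994 and its Benjamini-Hochberg adjusted p 0.101. The sex of each sample was not tested. The labels do not tie the samples to individual mice or cultures, and each p-value thus measures only how these samples scatter, which may be technical. All fold changes are on the log2 scale, are positive where the miR-9 line is higher, and come with the unadjusted p-values from the authors' deposited table. Values per library, expression levels and the number of samples that share a direction were not analysed here.

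When antigen crosslinks IgE on a mast cell, Src family kinases phosphorylate the receptor chains and the kinase Syk is recruited. Syk phosphorylates the membrane adaptor LAT, on which the cytosolic adaptors and phospholipase C gamma assemble. The lipase makes inositol trisphosphate, which empties calcium stores, and diacylglycerol, which acts on RasGRP exchange factors and protein kinase C. KIT, the receptor for stem cell factor, feeds the RAS and phosphoinositide 3-kinase branches through many of the same adaptors. The lipid phosphatase SHIP (Inpp5d), the tyrosine phosphatase SHP-1 (Ptpn6), CBL ubiquitin ligases and DOK adaptors restrain the cascade.

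The signalling machinery below the receptors showed no member that passed the test between the genotypes. The authors' deposited table gives a p-value for 32 of the 34 members, and 0 of these had a Benjamini-Hochberg adjusted p under 0.05, computed here over all 24071 genes with a p-value. The background was 0.411% of all genes called, made up of 0.245% higher and 0.166% lower in the miR-9 line. At an unadjusted p under 0.05 a single member passed, the diacylglycerol-responsive exchange factor Rasgrp1, where 7.92% of all genes did. Other call rules also gave 0 members, against backgrounds of 0.968% at an adjusted p under 0.10, 0.299% at the unadjusted 0.0001 of the design text, 0.0997% with Benjamini-Yekutieli adjustment and 0.753% with adjustment over protein-coding genes alone. At shares this low a count of 0 among 32 genes lies near the background and does not set the members apart. No count test could be run beside these call rules, since no column per library was used.

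The members' fold changes in the authors' deposited table were small and lay on both sides of 0. Of the 32 with a p-value, 17 were positive and 15 negative, with a median of 0.04, while over all 24071 genes tested 40.2% were positive and the median was -0.09. The members with a p-value ran from -0.79 (Rasgrp1) to 0.40 (Grb2) in the authors' deposited table. The median size of a change, whatever its sign, was 0.13 for the members and 0.26 for all genes with a p-value. Of the 32 members 26 (81.25%) differed by less than 0.25 in either direction, where 48.3% of all genes in the authors' deposited table did. A p above 0.5 was found for 22 members (68.75%), against 45.9% of all genes. Small changes were not particular to the members. In the further lists read below, the share under 0.25 ran from 22.2% (Src family kinases and Csk) to 75% (receptors). It was 73.9% for PI3K-mTOR genes and 70% for RAS-MAPK genes, with 60.9% and 60% of their p-values above 0.5. Fewer cells of a type and less RNA per cell cannot be told apart in bulk samples.

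**Figure D1:**
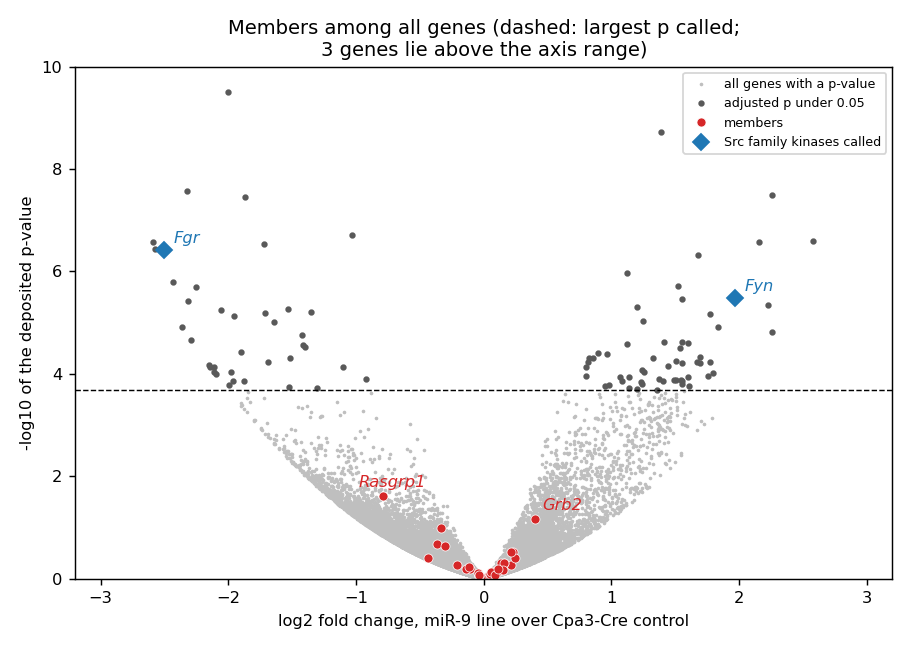
Each point is a gene with a p-value, placed by its log2 fold change (miR-9 line over Cpa3-Cre control, horizontal) and the -log10 of its deposited p-value (vertical). The red points are the 32 members, which crowd near the origin below the dashed line at the largest p called, with Rasgrp1 farthest to the left at -0.79. The Src family kinase genes Fyn and Fgr, in blue, lie above the line, and 3 genes lie above the range of the vertical axis.

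The table holds no standard errors. A standard error was therefore inferred as the size of the log2 fold change divided by the normal score of its p-value, which is right only if the p-value came from a two-sided Wald test on the deposited fold; the sources used here do not say so. If the folds were shrunken towards 0, these intervals are centred on shrunken values. On that reading the members' standard errors ran from 0.16 (Vav1) to 0.52 (Pik3r5) with a median of 0.24. The median over all genes with a p-value was 0.40, so the members and all genes were not measured with equal precision. The implied 95% intervals of 30 of the 32 members lay within a 2-fold change in either direction, and those of Rasgrp1 and Pik3r5 reached beyond it. A member would have needed a change of 1.52-fold (Vav1) to 3.79-fold (Pik3r5), with a median of 1.86-fold, to be called. On the same reading, smaller differences between the genotypes were not detectable with these samples.

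**Figure D2:**
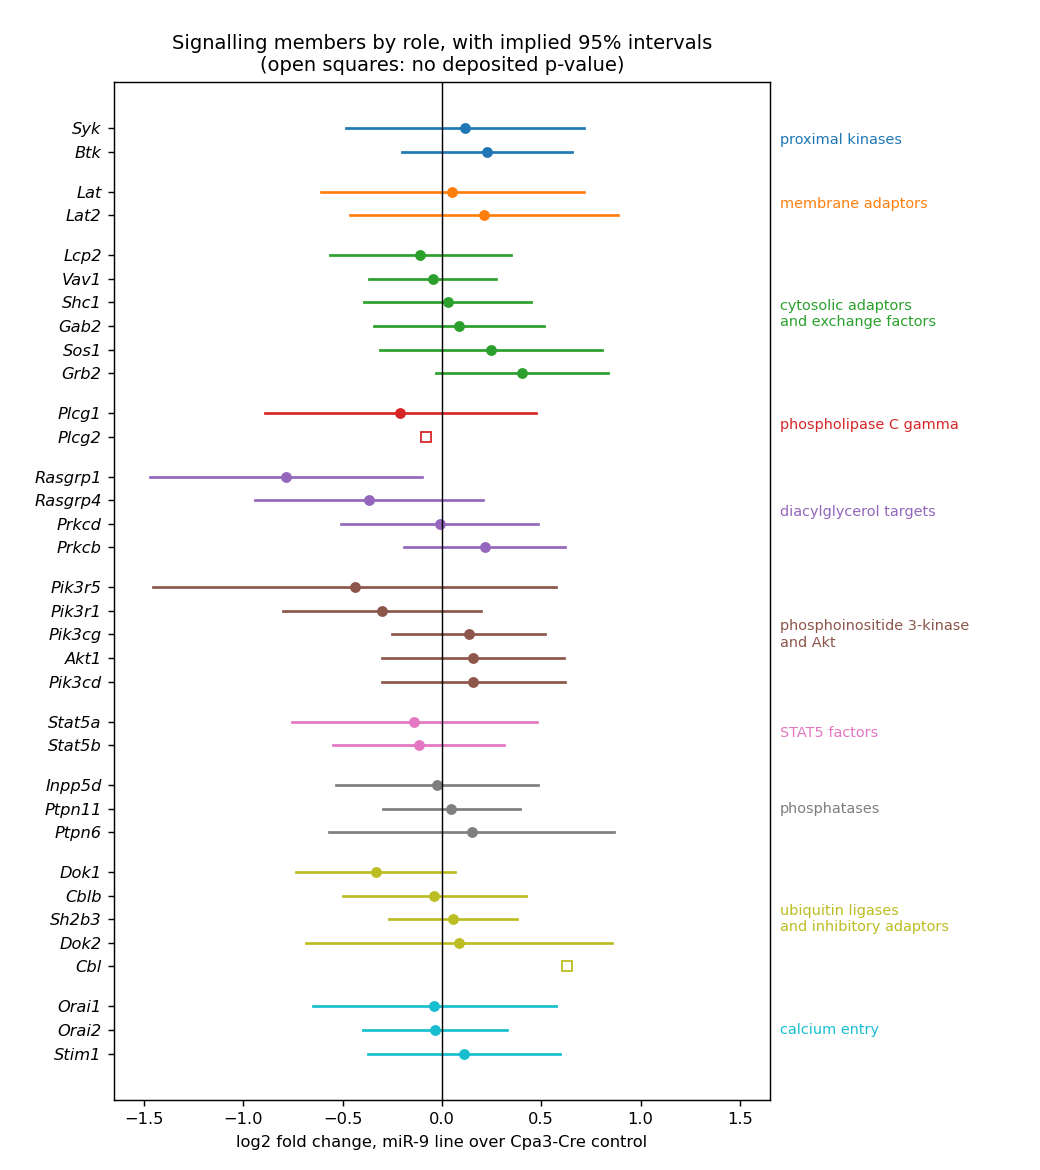
Points give the deposited log2 fold change of each of the 34 members (horizontal axis), grouped by role, and bars are the 95% intervals implied by the deposited p-values. Every bar but that of Rasgrp1 crosses 0, and the open squares are Plcg2 and Cbl, which have no deposited p-value and no bar.

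Because the mice carry an altered miR-9 allele, the members' 3' UTRs were read for matches to the seed of that microRNA. The hairpin at the Mir9-1 locus is covered on the opposite strand by the gene model Gm25641. The authors' deposited table puts Gm25641 at 4.50 on the log2 scale (p = 3.63e-22). No source used here states if counting was strand-aware, so its reads cannot be assigned to a strand. The loci Mir9-2 and Mir9-3 encode the same mature microRNA, which is not measured by these libraries. The mature arms are given here as in RefSeq for GRCm38.p6, with the seed, bases 2 to 8, in capitals.
mmu-miR-9-5p: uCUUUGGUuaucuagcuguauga
mmu-miR-9-3p: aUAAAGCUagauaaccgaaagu

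The longest annotated 3' UTR of each gene in GENCODE M21 (GRCm38) was searched on the transcript strand for ACCAAAG, the match to the miR-9-5p seed, and for AGCTTTA, the match to the miR-9-3p seed. Of the 34 members 8 held a miR-9-5p match, or 23.5%, where 13.3% of 16536 genes with a 3' UTR did. The members' UTRs were longer, with a median of 1527 bases against 1069, and per kilobase of UTR the members held 0.153 matches against 0.0997. For miR-9-3p 5 members held a match (14.7%), where 11.9% of all genes did. The 10 miR-9-5p matches are printed here with the 15 bases before and the base after them, since they are the places where this microRNA could pair with the members; the match is in capitals, and each lies within the exons that the deposited table lists.
Cblb, chr16:52204695-52204717, plus strand: gccagaactgcagacACCAAAGg
Gab2, chr7:97305437-97305459, plus strand: gccaagaaccagccgACCAAAGt
Pik3cd, chr4:149650538-149650560, minus strand: gcatgtccagtggtcACCAAAGg
Pik3r5, chr11:68497584-68497606, plus strand: accatcatgttctgcACCAAAGa
Sh2b3, chr5:121816435-121816457, minus strand: gcatagaaggtatgaACCAAAGa
Sh2b3, chr5:121815945-121815967, minus strand: ctaaaagtcaccagcACCAAAGa
Shc1, chr3:89428630-89428652, plus strand: ctctggccaaacttcACCAAAGt
Shc1, chr3:89429959-89429981, plus strand: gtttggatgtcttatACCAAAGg
Sos1, chr17:80397619-80397641, minus strand: gggtaccgaggcttcACCAAAGa
Vav1, chr17:57327993-57328015, plus strand: ggtgggcacgcactgACCAAAGt

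Members with a miR-9-5p match did not stand to one side. Of the 8, 5 had positive and 3 negative fold changes in the authors' deposited table, from -0.44 (Pik3r5) to 0.24 (Sos1), with a median of 0.04, and the 24 members with a p-value and no match had a median of 0.02. Over all genes with a 3' UTR and a p-value the medians were -0.11 with a match and -0.08 without. Matches followed by an A, the base favoured opposite the first base of a microRNA, occurred in Pik3r5, Sos1 and in both sites of Sh2b3, an adaptor that restrains cytokine receptor signalling and stood at 0.05 in the authors' deposited table. For miR-9-3p the members with a match were Pik3cd, Pik3r1, Plcg1, Sh2b3 and Cbl, and the 3 matches of Cbl lie outside the exons listed for it. A match is a run of letters and was not tested as a binding site.

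**Figure D3:**
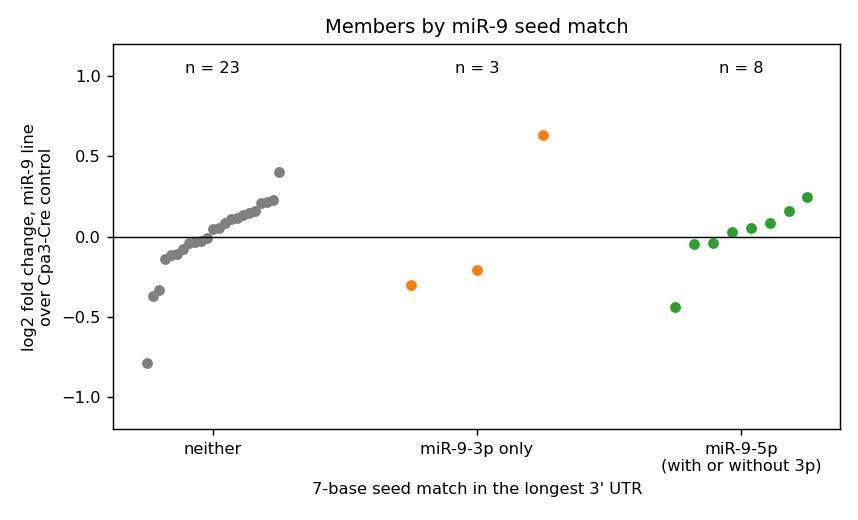
The 34 members are split by seed match in the longest 3' UTR: neither arm (n = 23), miR-9-3p only (n = 3) and miR-9-5p (n = 8), with their deposited log2 fold change on the vertical axis and members sorted within each column. The miR-9-5p column runs from -0.44 to 0.24, inside the range of the members with neither match.

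Both proximal kinases stood slightly above 0. In the authors' deposited table Syk, which binds the phosphorylated receptor chains, stood at 0.12 (p = 0.704, implied 95% interval -0.48 to 0.72). Btk, the Tec family kinase that phosphorylates phospholipase C gamma, is X-linked and stood at 0.23 (p = 0.299) in the authors' deposited table. The membrane adaptors had the same sign, with Lat at 0.05 (p = 0.876) and its relative Lat2 at 0.21 (p = 0.539) in the authors' deposited table. Lat is the shortest of the member models, with 1239 bases in 12 exons.

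Among cytosolic adaptors and exchange factors 4 of 6 values were positive. Grb2, which links phosphorylated receptors to the RAS exchange factor SOS, had the highest value of the members that the authors' deposited table gives a p-value, 0.40 or 1.32-fold (p = 0.0674, adjusted p = 0.680, implied 95% interval -0.03 to 0.84). The Grb2 model lies on chromosome 11 from 115644045 to 115708597 (GRCm38, minus strand) with 7 exons. Its partner Sos1 stood at 0.24 (p = 0.390) in the authors' deposited table. Gab2, the scaffold that brings phosphoinositide 3-kinase to the IgE receptor, was at 0.09 and Shc1, which couples receptors to GRB2, at 0.03 in the authors' deposited table. Lcp2, which encodes the adaptor that joins phospholipase C gamma to LAT, stood at -0.11 (p = 0.639), and Vav1, an exchange factor for RAC, at -0.05 (p = 0.768) in the authors' deposited table. Vav1 had the narrowest implied 95% interval of the members, -0.37 to 0.27.

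The lowest value lay among the genes for proteins that read diacylglycerol. In the authors' deposited table Rasgrp1, a RAS exchange factor that mast cells use after IgE receptor crosslinking, stood at -0.79, or 1.72-fold lower in the miR-9 line (p = 0.0243, adjusted p = 0.494, implied 95% interval -1.47 to -0.10). Of all genes with a p-value 6.88% stood lower than Rasgrp1. The model lies on chromosome 2 from 117279993 to 117343001 (minus strand, 17 exons), and no other model of the table overlaps it. In the authors' deposited table Rasgrp4, a relative expressed mainly in mast cells, was at -0.37 (p = 0.210, adjusted p = 0.830). Neither passed the test, and a shared sign in 2 genes is no more than that.

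The Rasgrp4 model shares 977 exon bases with Fam98c and 181 with Gm16282, both on the opposite strand. Fam98c stood at -0.07 and Gm16282 at -0.44 in the authors' deposited table, neither past the test. No source used here states if counting was strand-aware, and reads of Rasgrp4 and of these neighbours may not have been told apart. The protein kinase C genes of the same branch stood apart in sign, with Prkcb at 0.21 (p = 0.299) and Prkcd at -0.01 (p = 0.964) in the authors' deposited table. The difference between them was not tested.

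Phospholipase C gamma gave 1 tested value. In the authors' deposited table Plcg1 was at -0.21 (p = 0.546, implied 95% interval -0.89 to 0.47), and its exons overlap those of Zhx3 by 379 bases and those of RP23-393F23.11 by 248, on the opposite strand. The authors' deposited table lists Plcg2 at -0.08 with no p-value. Cbl, the ubiquitin ligase that directs activated receptors to degradation, also had no p-value there, and its listed fold change of 0.63 was the highest of the 34 members. Rows without a p-value made up 5.78% of the table and 6.81% of its protein-coding rows, and no source used here states the reason.

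None of the 5 members of the phosphoinositide 3-kinase branch passed the test. The catalytic subunit genes Pik3cd (0.16, p = 0.502) and Pik3cg (0.13, p = 0.492) and the downstream kinase gene Akt1 (0.16, p = 0.501) stood above 0 in the authors' deposited table. The regulatory subunit gene Pik3r1 was at -0.30 (p = 0.234) and Pik3r5, for the partner of the gamma catalytic subunit, at -0.44 (p = 0.397) in the authors' deposited table. Pik3r5 had the widest implied 95% interval of the members, -1.45 to 0.58. Subunit genes outside the members lay on both sides of 0 as well. The catalytic Pik3ca was at -0.20 and Pik3cb at 0.18 in the authors' deposited table. The regulatory Pik3r2 was at -0.49 (p = 0.0612), Pik3r3 at -0.04, Pik3r4 at -0.04 and Pik3r6 at 0.06 in the authors' deposited table. All of these but Pik3r2 were chosen after their values were seen.

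Stat5a and Stat5b, which carry interleukin-3 and KIT signals to the nucleus, had close values in the authors' deposited table, -0.14 (p = 0.655) and -0.12 (p = 0.595). They lie side by side on chromosome 11, Stat5b from 100780731 to 100850724 on the minus strand and Stat5a from 100859351 to 100885169 on the plus strand. Stat5a shares 72 exon bases with Stat3 on the opposite strand. The coding sequences of the Stat5 genes are close relatives, and no source used here states how reads shared between such relatives were counted.

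None of the phosphatases, inhibitory adaptors and calcium entry genes with a p-value passed. Inpp5d (SHIP) stood at -0.02 (p = 0.924), Ptpn6 (SHP-1) at 0.15 (p = 0.684) and Ptpn11, the phosphatase SHP-2 that promotes RAS signalling, at 0.05 (p = 0.794) in the authors' deposited table. Dok1, an adaptor that recruits the RAS GTPase activating protein, was lowest of these at -0.33 (p = 0.102, adjusted p = 0.734, implied 95% interval -0.74 to 0.07), while its relative Dok2 was at 0.09 (p = 0.826) in the authors' deposited table. Cblb, the relative of Cbl, stood at -0.04 (p = 0.871) and Sh2b3 at 0.05 (p = 0.741) in the authors' deposited table. For store-operated calcium entry, the sensor gene Stim1 was at 0.11 (p = 0.653), and the channel genes Orai1 and Orai2 at -0.04 (p = 0.901) and -0.03 (p = 0.851) in the authors' deposited table.

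Around the members, 149 further genes of the pathway were read in 8 lists, and 135 had a p-value. Of these 1 rose and 1 fell, where 0.245% of all genes with a p-value rose and 0.166% fell by the same rule. Both were in the list of Src family kinases and Csk, which act at the receptor before Syk. Fyn rose by 1.97 (adjusted p = 0.00375) and Fgr fell by 2.50 (adjusted p = 0.000623) on the log2 scale of the authors' deposited table. Lyn, the kinase that starts receptor phosphorylation in mast cells, was at -0.02 in the authors' deposited table (p = 0.926). The receptor genes did not pass, with Fcer1a at 0.09, Ms4a2 at 0.10, Fcer1g at 0.46 and Kit at -0.04 in the authors' deposited table.

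In the other 6 lists 0 of the tested genes passed. With 0.411% of all genes called, counts of 0 in lists of this size lie near the background. The medians ran from -0.17 for JAK-STAT genes to 0.20 for calcium and NFAT genes. At an unadjusted p under 0.05, which 7.92% of all genes reached, stood 3 of 13 JAK-STAT genes, 4 of 26 negative regulators, 2 of 22 other adaptors and kinases, 1 of 18 calcium and NFAT genes, 1 of 23 PI3K-mTOR genes and 0 of 20 RAS-MAPK genes. The feedback inhibitors of cytokine signalling Socs1 (-0.61, p = 0.0108, adjusted p = 0.353) and Cish (-0.61, p = 0.0303, adjusted p = 0.532) had the smallest p-values of the JAK-STAT list in the authors' deposited table. The third of that list, Socs3, named after its value was seen, was at -0.55 (p = 0.0370, adjusted p = 0.573) in the authors' deposited table. Among negative regulators the RAS pathway inhibitors Spred2 (0.79, p = 0.00150, adjusted p = 0.125) and Spry1 (-1.27, p = 0.00250, adjusted p = 0.166) had the smallest p-values and opposite signs in the authors' deposited table. Of the other adaptors and kinases 22 of 31 had a p-value. Among these the adaptor gene Shb stood at -1.02 (p = 0.0114, adjusted p = 0.362) in the authors' deposited table.

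The calcium list was led by Kcnn4, a calcium-activated potassium channel (0.56, p = 0.0307, adjusted p = 0.535), and the calmodulin gene Calm3 (0.49, p = 0.0616) in the authors' deposited table. The PI3K-mTOR list was led by Tsc2, which restrains mTOR (0.39, p = 0.0367, adjusted p = 0.569), and the regulatory subunit gene Pik3r2 (-0.49, p = 0.0612) in the authors' deposited table. Map3k1 (-0.71, p = 0.0983) and the ribosomal S6 kinase gene Rps6ka3 (0.30, p = 0.190) had the smallest p-values of the RAS-MAPK list in the authors' deposited table.

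**Figure D4:**
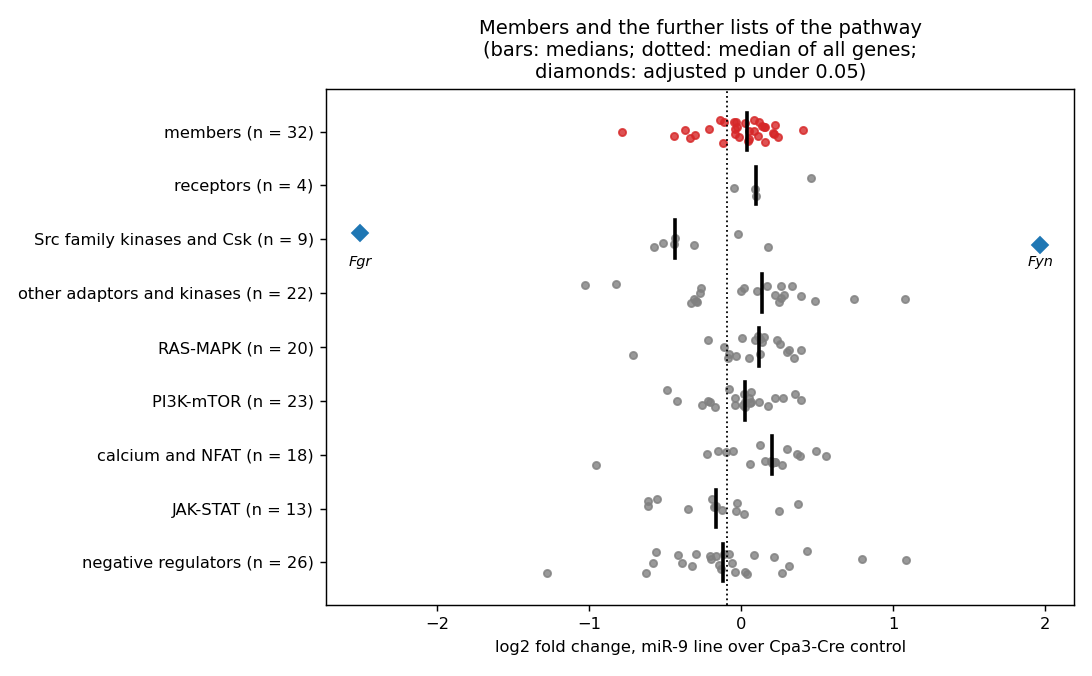
Each point is a gene with a p-value in the members (red, n = 32) or in 1 of the 8 further lists (grey), placed by its deposited log2 fold change; black bars are list medians and the dotted line is the median of all genes, -0.09. The blue diamonds, Fgr and Fyn, are the called genes, and the members lie between -0.79 and 0.40.

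Several members are expressed in other blood cells too, so markers of such cells were read beside them. The 7 neutrophil, 7 macrophage, 2 basophil and 2 eosinophil markers found lacked p-values in the authors' deposited table, as was the case for Plcg2 and Cbl. The 4 T cell and 4 B cell markers found stood below 0 in the authors' deposited table, from -0.53 to -0.04 and from -0.61 to -0.07, and none passed. Over all genes with a p-value only 40.2% were positive and the median was -0.09. In each of these 2 lists 1 marker lay above that median. Of the 10 mast cell markers Tpsb2 rose (1.60, adjusted p = 0.0149), where 0.245% of all genes did, and the other 9 did not pass. Marker levels were not analysed here, so the labelled cell type was not checked by level, and the part of other cells in the members' values was not tested.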

How the data were processed

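RNA from 5 samples was depleted of ribosomal RNA and sequenced from strand-marked libraries as paired 50-base reads, per the labels' protocols. The submitters' processing notes list the builds GRCm38 and mm10 and the tools DESeq2, DESeq, Cuffdiff, HTSeq and STAR, with neither version nor role, and the design text names DESeq2 for the statistics. The authors deposited a log2 fold change, a signed linear fold (a score that matched 2 raised to the size of the log2 value, with a minus sign where that was negative, within 0.001 in 100% of rows), an unadjusted p-value and a gene length; no source used here states the model, the filters or any shrinkage. Depth per sample was not analysed here. The table's 5 columns of values per library have names that match no label and were not used in any step. The tests planned for mapped columns were therefore replaced by the authors' p-values, adjusted with statsmodels 0.14.6 (Benjamini-Hochberg, threshold 0.05, over 24071 rows; 1478 rows have no p-value). Protein-coding class and older symbols came from RefSeq (GRCm38.p6), and UTRs from GENCODE M21; all 34 members lay at the M21 place. Alternatives were the threshold, the adjustment, protein-coding rows and centring. Values were given for all members, and for each further list the called genes and the 2 smallest p-values. A value that this rule would name in the list of other adaptors and kinases is not reported here. The members and lists were chosen with earlier results of these data known. The adjustment and the seed search were tested on simulated data. Python 3.11.15, numpy 2.4.6, pandas 2.3.3, scipy 1.17.1 and matplotlib 3.10.9 were used.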

Additional observations from a re-analysis of the deposited data

How the results depend on the processing

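The count of 0 called members was the same under each alternative threshold and adjustment tried. With 0.0997% to 0.968% of all genes called under these rules, 0 among 32 lies near the background. The count over all genes went from 99 to 233 at an adjusted p under 0.10 and to 24 with Benjamini-Yekutieli adjustment. The members' median log2 fold change went from 0.04 to 0.13 after subtracting the median of all genes or that of protein-coding genes (0.130 and 0.128), and the members with positive values from 17 to 23 of 32. Subtracting the median of all genes turned the sign of 7 members: Vav1 (0.0444), Plcg2 (0.0127), Prkcd (0.0808), Inpp5d (0.0673), Cblb (0.0541), Orai1 (0.0535) and Orai2 (0.0575). Of these 7, Plcg2 has no p-value and is not among the 32. The smallest adjusted p of a member was 0.494 over all genes and 0.389 over protein-coding genes, for Rasgrp1 in both. No paired analysis was possible because the columns per library carry no sample numbers. Leave-one-out fits and DESeq2 against edgeR were not run for the same reason. Filters on low values and pseudocounts were not run because the columns per library were not used in any step. The comparison has 2 against 3 samples, and depth was not analysed here.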
